A study of Mus musculus with 12 samples.

Results

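Kupffer cells are the macrophages that live in the sinusoids of the liver, and the genes described here are 37 that mark them or the macrophages that join or replace them. They were listed by name, with no threshold on a measured value, from the 24910 genes and unassigned transcripts of the expression table. The 37 genes form 4 groups, which are 8 genes of resident Kupffer cells (Clec4f, Cd5l, Vsig4, Marco, Timd4, Cd163, Folr2 and Spic), 6 genes of lipid-associated macrophages (Trem2, Gpnmb, Cd9, Spp1, Lgals3 and Itgax), 3 genes of recruited monocytes (Ccr2, Cx3cr1 and Itgam) and 20 genes that macrophages share. RNA and open chromatin were measured in whole liver of male C57BL/6J wild-type mice, 2 mice in each of the groups Control, Sham and VSG, with both assays made on the same livers. Sham and VSG mice were given a high-fat diet with 60% of its energy as fat from the age of 8 weeks, had surgery after 14 weeks and ate the same diet for 14 weeks more, after a liquid diet in the first 4 days. In vertical sleeve gastrectomy (VSG) about 80% of the stomach was removed, and in the Sham procedure the stomach was exposed and pressed with forceps. Control mice ate standard chow for 28 weeks and had no surgery, so diet and surgery cannot be told apart in any comparison with Control.

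Resident Kupffer cells are seeded before birth, renew themselves in the liver and clear bacteria, dying red cells and debris from portal blood. They carry the lectin CLEC4F, the complement receptor VSIG4 and the receptor TIMD4, and depend on the growth factor receptor CSF1R. When resident cells are lost, as can happen in a fatty liver, blood monocytes that carry CCR2 enter, and some of them become macrophages that take up lipid and express Trem2, Gpnmb, Cd9 and Spp1. Sham against Control compares mice on the high-fat diet after a Sham operation with unoperated mice on chow, and VSG against Sham compares the operations on the same diet.

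RNA abundance is given as FPKM, fragments scaled to transcript length and to the mapped fragments of the library, summed over the transcripts of a gene. In bulk RNA, fewer cells of a type and less RNA per cell cannot be told apart. The 4 defining genes Clec4f, Vsig4, Trem2 and Gpnmb were listed above 0 in every mouse. The first pair ranged from 1.86 to 48.8 FPKM and the second from 0.0236 to 4.14 FPKM. In Control, Gpnmb was at 0.0392 and 0.0236 FPKM, values near 0 that may rest on few fragments. Of the 37 genes, 30 reached 1 FPKM in at least 2 mice and were tested. A gene could reach this through 1 high group alone, so counts and medians over the tested genes are descriptions only. The 7 that did not were Gpnmb, Itgax, Ccr2, Cx3cr1, Itgam, Mertk and Ptprc.

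The promoters of these genes are shown because the open chromatin data bear on them. PU.1 is the transcription factor that macrophages need, and its binding core is GAGGAA. The sequences below run from 250 bases before the RefSeq start site of each gene to that start, 5′ to 3′ on the strand of the gene, with every GAGGAA, or its reverse complement TTCCTC, in capitals. That of Clec4f was cut back to the 179 bases outside the annotated gene. Coordinates are those of mm9, found by an exact match of each sequence. The first 3 are of resident Kupffer cell genes, the next pair of lipid-associated genes and the last 3 of shared macrophage genes.
Clec4f (chr6:83606182-83606360, minus strand): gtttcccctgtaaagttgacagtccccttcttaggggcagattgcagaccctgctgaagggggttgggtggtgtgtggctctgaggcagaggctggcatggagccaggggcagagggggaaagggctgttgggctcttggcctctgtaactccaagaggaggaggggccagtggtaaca
Vsig4 (chrX:93488778-93489027, minus strand): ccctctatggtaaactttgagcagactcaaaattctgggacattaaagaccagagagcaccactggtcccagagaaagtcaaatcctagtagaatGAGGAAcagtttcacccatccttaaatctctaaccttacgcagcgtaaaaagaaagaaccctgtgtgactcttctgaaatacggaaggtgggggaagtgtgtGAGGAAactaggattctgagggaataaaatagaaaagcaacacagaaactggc
Cd5l (chr3:87161553-87161802, plus strand): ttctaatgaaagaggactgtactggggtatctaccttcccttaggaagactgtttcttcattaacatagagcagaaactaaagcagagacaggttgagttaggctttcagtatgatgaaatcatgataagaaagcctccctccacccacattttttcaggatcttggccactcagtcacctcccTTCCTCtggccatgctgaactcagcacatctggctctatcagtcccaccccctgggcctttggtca
Trem2 (chr17:48485476-48485725, plus strand): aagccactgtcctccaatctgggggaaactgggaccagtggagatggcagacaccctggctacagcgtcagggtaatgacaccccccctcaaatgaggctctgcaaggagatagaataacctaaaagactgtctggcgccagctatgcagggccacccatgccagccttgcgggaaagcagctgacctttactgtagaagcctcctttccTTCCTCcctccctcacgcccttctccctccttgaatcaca
Gpnmb (chr6:48986267-48986516, plus strand): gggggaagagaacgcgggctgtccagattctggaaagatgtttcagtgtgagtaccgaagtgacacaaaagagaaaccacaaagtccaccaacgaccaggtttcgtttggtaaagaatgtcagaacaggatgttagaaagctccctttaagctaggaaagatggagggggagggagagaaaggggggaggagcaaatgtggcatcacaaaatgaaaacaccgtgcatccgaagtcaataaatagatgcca
C1qb (chr4:136442116-136442365, minus strand): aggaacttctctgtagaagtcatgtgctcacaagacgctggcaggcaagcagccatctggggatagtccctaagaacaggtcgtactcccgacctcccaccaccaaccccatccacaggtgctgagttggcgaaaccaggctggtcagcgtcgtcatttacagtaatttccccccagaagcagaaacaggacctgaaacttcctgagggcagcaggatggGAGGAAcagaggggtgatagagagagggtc
Ctss (chr3:95330458-95330707, plus strand): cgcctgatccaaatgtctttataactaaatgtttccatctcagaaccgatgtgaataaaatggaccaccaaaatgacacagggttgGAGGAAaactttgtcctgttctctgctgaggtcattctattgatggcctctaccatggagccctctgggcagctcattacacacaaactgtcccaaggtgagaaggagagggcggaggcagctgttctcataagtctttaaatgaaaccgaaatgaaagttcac
Cd68 (chr11:69479673-69479922, minus strand): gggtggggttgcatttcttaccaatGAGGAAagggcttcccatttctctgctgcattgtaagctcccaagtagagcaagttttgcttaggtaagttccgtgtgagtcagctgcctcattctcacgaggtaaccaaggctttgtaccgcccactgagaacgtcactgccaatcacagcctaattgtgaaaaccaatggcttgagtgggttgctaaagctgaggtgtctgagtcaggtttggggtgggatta

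RefSeq promoter sequences, from a table built on GRCm38.p6, were at hand for 31 of the 37 genes (34 start sites), without Adgre1, C1qa, Csf1r, Ctsb, Msr1 and Tyrobp. GAGGAA lay on either strand in 15 of the 34 windows (44.1%) and in 23.3% of 32851 promoter windows of the same length. It lay in 9 of the 15 windows of shared macrophage genes (60.0%), among them those of C1qb, Ctss and Cd68 above, in 3 of 9 of resident Kupffer cell genes and in 2 of 7 of lipid-associated genes. The windows of Clec4f and Gpnmb held none. The E-box CACGTG, whose factors include those that control lysosome genes, was in 0 of the 34 windows and in 6.02% of all promoters. The longer TCATGTG, the core that MITF and its relatives bind, was in 2 of 34, those of C1qb and C1qc, and in 3.25% of all. These letters are counts in a window and not sites of binding.

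Open chromatin was measured by FAIRE-seq, in which DNA freed of nucleosomes is recovered after crosslinking and sequenced, and the peaks listed for a group are those reproducible between its 2 mice. Most start sites of the macrophage genes were without a peak. A peak lay within 1000 bases of an annotated start site for 3 of the 37 genes in Control (8.11%), 4 in Sham (10.8%) and 3 in VSG (8.11%). Of 22238 protein-coding genes, 51.5%, 51.5% and 52.8% had one. Among 8642 genes that passed the RNA filter with a mean FPKM inside the range of the tested macrophage genes (0.668 to 112), the shares were 90.5%, 90.2% and 91.5%. Of the 30 macrophage genes that passed the same filter, 2, 3 and 2 had one (6.67%, 10% and 6.67%). Ranges of RNA abundance that overlap thus went with unlike shares of start sites with a peak. No test of this difference was made, since peaks have no replicates here.

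**Figure D1:**
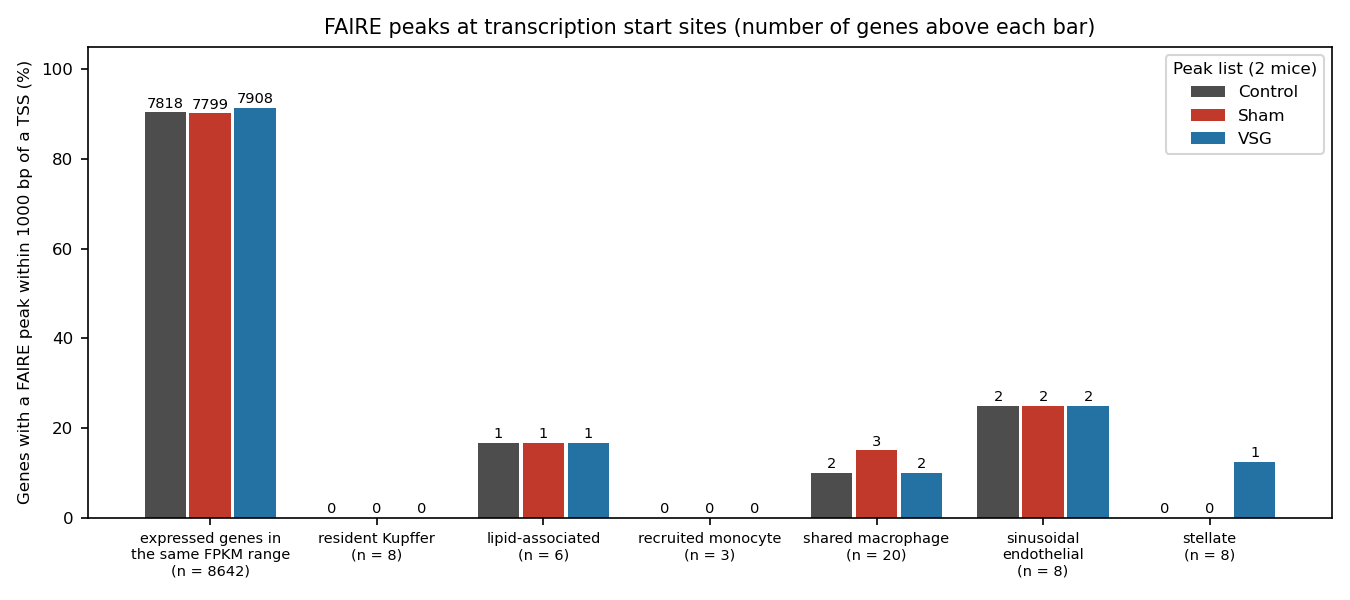
Share of genes (%) with a FAIRE peak within 1000 bp of a start site, for the Control, Sham and VSG peak lists, with the number of genes above each bar. The expressed genes in the same FPKM range stand at 90.2% to 91.5%, the resident Kupffer and recruited monocyte genes at 0, and the other macrophage groups at 10% to 16.7%.

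Cd9, Ctsb and Mertk had a peak at the start in all 3 lists. For each, the strongest peak within 1000 bases of a start is given. Cd9, a tetraspanin, had it at chr6:125444366-125445138 in Control, and its signal, the density that the peak caller F-seq gives, was 0.244 in Control, 0.290 in Sham and 0.228 in VSG, where a weaker one (0.169) lay over the promoter window. Ctsb, the lysosomal protease cathepsin B, had a signal of 0.667, 0.797 and 0.771 in the same order. Mertk, a receptor by which macrophages engulf dying cells, had 0.520, 0.916 and 0.678 at its strongest peak, upstream of the promoter window, and 0.388, 0.561 and 0.589 over that window, so the order of Sham and VSG differed between them. In RNA, Ctsb and Cd9 were at 75.0 to 149 and 13.1 to 40.8 FPKM, whereas Mertk was listed at 0 FPKM in 5 of 6 mice and at 1.38 FPKM in VSG mouse 2. A value of 0 can be a failed estimate in this table, since 21 of 95 ribosomal protein transcripts were also listed at 0 in every mouse. Clec4f and C1qa had RNA with no peak at a start site. Cd68, a lysosomal glycoprotein used as a macrophage marker, had a peak only in the Sham list (chr11:69479348-69480039, signal 0.259), and this peak covers the printed promoter. The Sham list holds 52881 peaks, that of VSG 44539 and that of Control 42204, with median signals of 0.398, 0.298 and 0.252. The signals above are as listed, with no scaling between lists. When the 42204 strongest peaks of each list were used, the counts were again 3, 4 and 3.

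None of the 8 resident Kupffer cell genes had a peak at a start site in any list. Within 5000 bases of a start site 8 of the 37 genes had a peak in Control, 11 in Sham and 6 in VSG, against 57.4%, 58.8% and 58.6% of all protein-coding genes. Within 1000 bases, markers of the other minor liver cells gave low counts too, with 2 of 8 sinusoidal endothelial genes in each list, 0 of 8 stellate cell genes in Control and Sham and 1 of 8 in VSG. Genes of other macrophage lists, some of them abundant in whole liver, had more within 1000 bases. There 51.5%, 51.5% and 52.8% of all protein-coding genes had a peak in Control, Sham and VSG. Of 7 other Kupffer cell genes 4 had a peak in Control, 5 in Sham and 4 in VSG (57.1%, 71.4% and 57.1%), and of 7 other lipid-associated macrophage genes 4, 5 and 5. Of 9 transcription factors of Kupffer cell identity, 7 had a peak in Control, 7 in Sham and 8 in VSG. Genes of these lists ranged from Ctsl at 140 to 330 FPKM and Ctsd at 126 to 183 FPKM to scarce ones such as Mmp12, at 0.0124 to 0.946 FPKM. Which cells gave the peaks at their starts was not tested. The share of macrophages among the cells of these livers was not measured, and its part in these counts was not tested.

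In RNA, 0 of the 30 tested macrophage genes passed a false discovery rate of 10% in any of the 3 comparisons by limma. Across all 9869 genes tested, 28 passed between Sham and Control (0.284%), 5 between VSG and Sham (0.0507%) and 28 between VSG and Control (0.284%), so few genes of any kind passed with 2 mice a group. At an unadjusted p under 0.05, 11 of the 30 were higher in Sham than in Control and none lower, against 6.57% of all genes higher and 4.34% lower. Between VSG and Control 15 of 30 were higher and none lower, against 7.02% and 2.53%. Between VSG and Sham 1 of 30, Cd5l, was higher and none lower, against 3.25% and 1.6%. These counts rest on few mice. Counted in either direction, the 11 became 5 without Control mouse 1, Control mouse 2 or Sham mouse 1, 7 without Sham mouse 2 and 17 without VSG mouse 1 or VSG mouse 2. The 15 became 8 without Control mouse 1, 5 without Control mouse 2 and 24 without VSG mouse 1, and the 1 for VSG against Sham became 10 without VSG mouse 1 and 2 without VSG mouse 2. The comparisons with Control share the Control mice, and both comparisons with Sham share the Sham mice.

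Without any filter, the FPKM of both Sham mice was above that of both Control mice for 28 of all 37 genes, and for 23.3% of the 17460 genes above 0 in any mouse. Mpeg1 alone was lower (17.9% of all genes). Both VSG mice were above both Control mice for 25 of 37 (29.9% of all genes), and below them for Cd163 and Ptprc (12.8%). Both VSG mice were above both Sham mice for 4 of 37 (18% of all genes), namely Cd5l, Folr2, Itgax and, with its transcripts summed, Lgals3, and below them for another 4 (9.7% of all genes), namely Trem2, Ccr2, Cx3cr1 and Ptprc. For the other 29 the VSG and Sham mice overlapped. In 28 of 37 genes, VSG mouse 2 was above VSG mouse 1, a share that was not counted over all genes. Of all genes tested, 23.3% were highest of the 6 mice in VSG mouse 2 and 16.1% in VSG mouse 1.

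**Figure D2:**
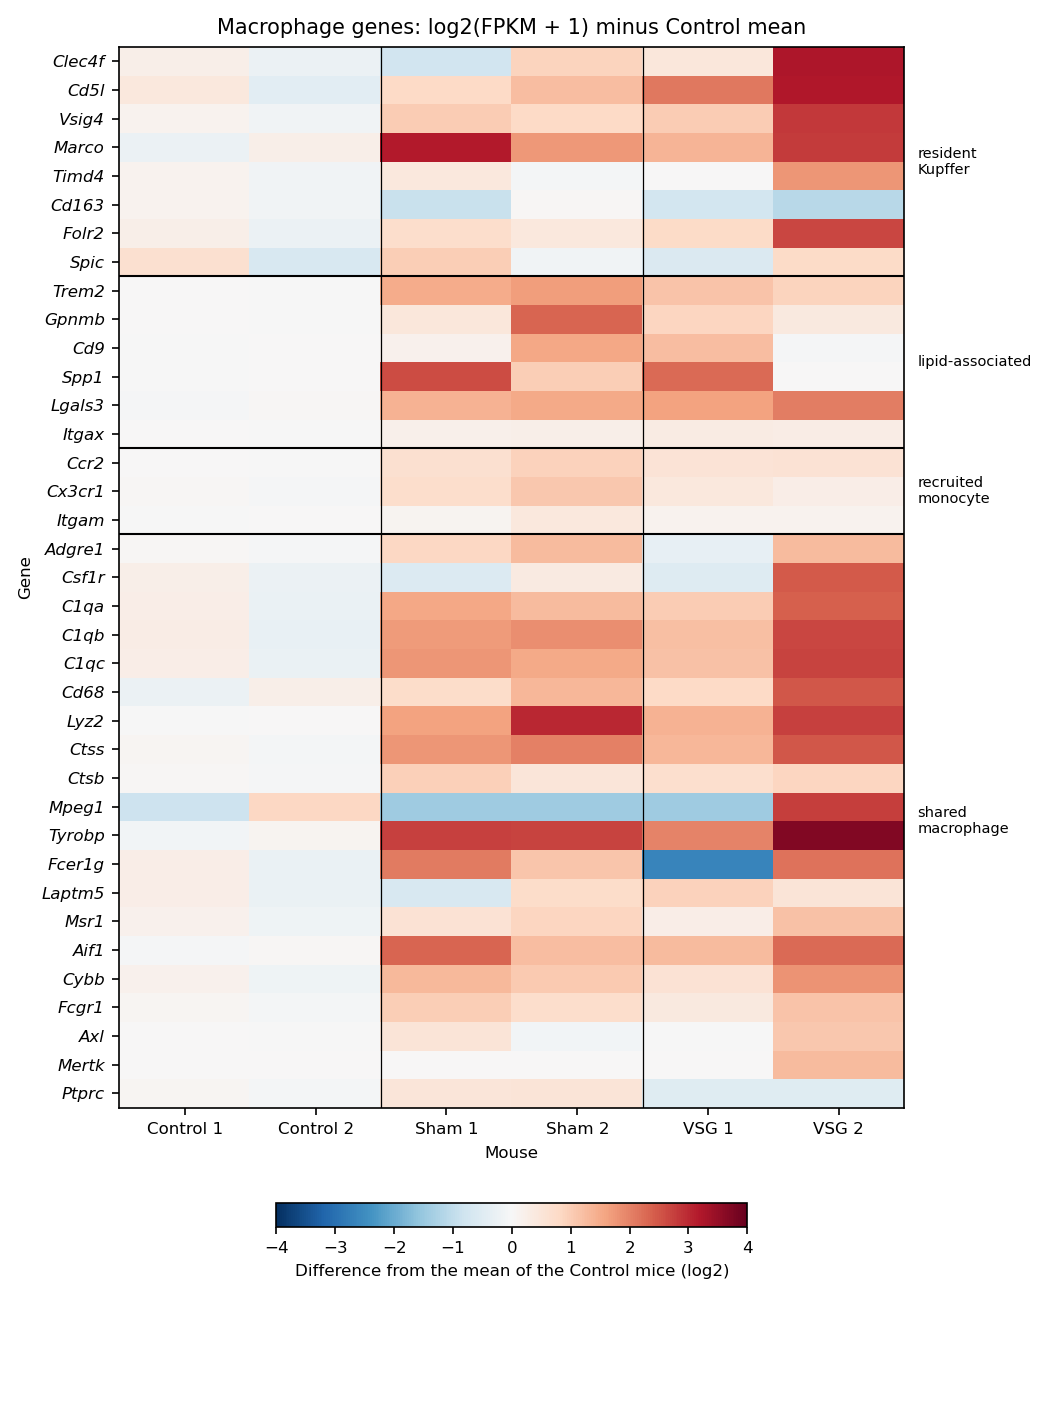
Each of the 37 genes (rows, by group) in each mouse (columns), as log2(FPKM + 1) minus the mean of the 2 Control mice, in colour. Red fills the Sham and VSG columns in most rows, and VSG mouse 2 is the highest mouse for 20 of 37 genes.

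The mice of a group differed, and 1 mouse touches most results. VSG mouse 2 had the highest value for 20 of 37 genes (54.1%), counted with no filter, and for 23.3% of the 9869 genes that passed the filter. By group these were 5 of 8 resident Kupffer genes, 14 of 20 shared genes, 1 of 6 lipid-associated genes and 0 of 3 recruited monocyte genes. Sums of erythroid, B cell, T cell, dendritic cell and stellate cell genes were also highest in this mouse. Those of monocyte, neutrophil, NK cell and cholangiocyte genes were highest in a Sham mouse, and those of sinusoidal endothelial and hepatocyte genes in a Control mouse. The summed FPKM of 5 erythroid genes was 1902 in it and 154 to 447 in the others, with Hba-a2 listed at 0 in all 6 mice. That of 4 B cell genes was 3.25 in it and 0.275 to 1.40 in the others, and that of 6 T cell genes was 2.13 against 0.414 to 1.17. Both VSG mice were above both Sham mice in 4 of 4 B cell genes and in the 4 erythroid genes above 0. They were so in 2 of 6 T cell genes and in 18% of all genes. Relative depth, estimated from the spacing of low FPKM values, was 0.676 to 1.56 of that of Control mouse 1 and 0.917 in VSG mouse 2. The part of these differences in the results was not tested, and values without VSG mouse 2 are given below.

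For 6 of 8 resident Kupffer cell genes a Control mouse was the lowest of all, and for 5 of 8 VSG mouse 2 was the highest. The median log2 change over the 8 genes was 0.50 for Sham minus Control, 0.87 for VSG minus Sham and 1.78 for VSG minus Control, where all genes tested had medians of 0.04, 0.08 and 0.13. Without VSG mouse 2 the median for VSG minus Sham was -0.023, and without VSG mouse 1 it was 1.77. Leaving out VSG mouse 2 brought the median for VSG minus Control to 0.61, and leaving out VSG mouse 1 to 2.74. For Sham minus Control it was 0.93 without Control mouse 1, 0.18 without Control mouse 2 and 0.76 without Sham mouse 2.

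Clec4f, the lectin that marks mouse Kupffer cells, had 5.22 and 3.53 FPKM in Control, 2.11 and 8.75 in Sham and 6.31 and 48.8 in VSG. VSG mouse 2 stood 7.73-fold above VSG mouse 1, which lay within the range of the Sham mice. The log2 change for VSG minus Sham was 1.79 ± 1.05 (SE), with a limma adjusted p of 0.944. Leaving out VSG mouse 2 brought it to 0.41, and leaving out VSG mouse 1 to 3.18. The gene lies on mm9 at chr6:83594536-83606181 on the minus strand.

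Vsig4, the receptor that binds complement C3b on bacteria in the blood, had 2.47 and 1.86 FPKM in Control, 5.39 and 4.44 in Sham and 5.38 and 21.6 in VSG. Both Sham mice were above both Control mice, while VSG mouse 1 lay between the Sham mice. The log2 change for VSG minus Sham was 1.02 ± 0.62 (limma adjusted p = 0.944), and it became 0.11 when VSG mouse 2 was left out and 1.94 when VSG mouse 1 was. Folr2, a folate receptor of resident macrophages named here after its values were seen, followed the same order, from 1.16 to 2.05 FPKM in Control through 2.47 to 3.21 in Sham to 3.33 and 15.5 in VSG.

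Cd5l, a secreted scavenger protein that macrophages make under the control of the nuclear receptor LXR, had 5.18 and 2.37 FPKM in Control, 6.96 and 9.69 in Sham and 18.6 and 40.8 in VSG. The 3 groups did not overlap, and Cd5l was among the few macrophage genes for which both VSG mice exceeded both Sham mice. Its log2 change was 1.02 ± 0.50 for Sham minus Control, 1.63 ± 0.50 for VSG minus Sham and 2.65 ± 0.50 for VSG minus Control, with limma adjusted p of 0.525, 0.944 and 0.301. Without VSG mouse 2, the change was 1.09 for VSG minus Sham and 2.10 for VSG minus Control. For Sham minus Control it was 0.58 without Control mouse 2 and 1.45 without Control mouse 1.

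Marco, a scavenger receptor for bacteria and particles, had 1.05 and 1.83 FPKM in Control, 20.6 and 7.0 in Sham and 5.12 and 15.8 in VSG. All 4 mice on the high-fat diet were above both Control mice, and Sham and VSG overlapped. Its log2 change of 2.45 ± 0.69 for Sham minus Control was the largest of the resident group (limma adjusted p = 0.361). Timd4, which binds phosphatidylserine on dying cells and marks the long-lived Kupffer cells, was at 0.494 to 1.19 FPKM in 5 mice and at 4.55 FPKM in VSG mouse 2. Spic, the transcription factor of iron-recycling macrophages, ranged from 0 to 2.06 FPKM with all groups overlapping.

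Cd163, the receptor that takes up hemoglobin bound to haptoglobin, ran the other way. It had 1.36 and 0.972 FPKM in Control, 0.157 and 1.23 in Sham, and 0.288 in VSG mouse 1, and was listed at 0 in VSG mouse 2. Both VSG mice were below both Control mice, with a log2 change of -0.93 ± 0.40 (limma adjusted p = 0.573). It was thus lowest in the mouse with the highest Clec4f, Cd5l, Vsig4, Timd4 and Folr2, and with the most hemoglobin RNA. As above, a listed 0 can be a failed estimate.

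**Figure D3:**
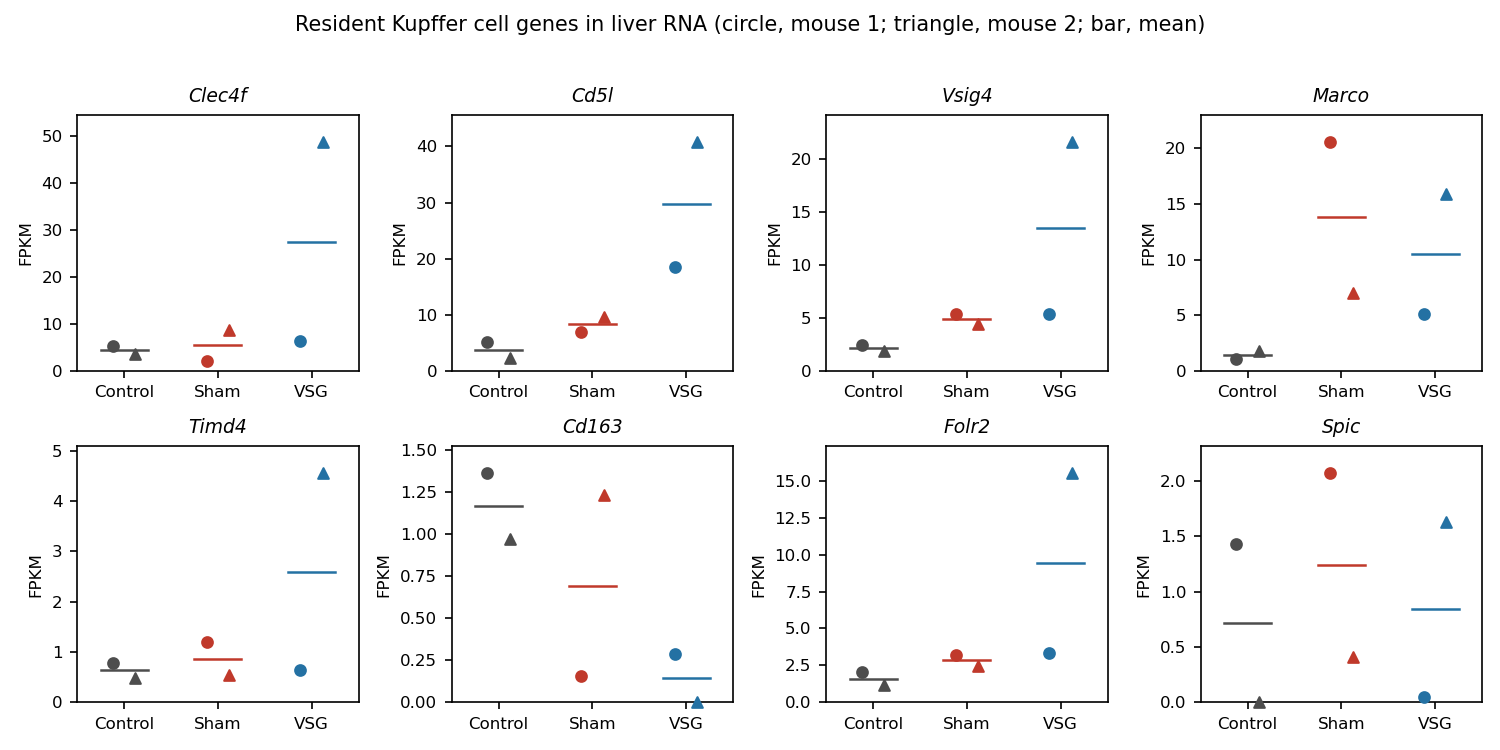
FPKM of the 8 resident Kupffer cell genes in each mouse, with a panel and a linear scale from 0 for each gene (circle, mouse 1; triangle, mouse 2; bar, mean of 2 mice). Cd5l is lowest in Control and highest in VSG with no overlap of the 3 groups, and Clec4f, Vsig4, Timd4 and Folr2 are far higher in VSG mouse 2 than in VSG mouse 1.

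In all 6 genes of lipid-associated macrophages, both Sham mice lay above both Control mice (23.3% of all genes). The median log2 change over the 4 tested genes was 1.52 for Sham minus Control, -0.41 for VSG minus Sham and 1.07 for VSG minus Control. Without VSG mouse 2 the median for VSG minus Sham was 0.26, and without VSG mouse 1 it was -0.79, where the median for VSG minus Control was 0.45. VSG mouse 2, the mouse with the most resident Kupffer RNA, was below VSG mouse 1 in 5 of these 6 genes.

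Trem2, the lipid-sensing receptor that defines these macrophages, had 0.397 and 0.382 FPKM in Control, 2.88 and 3.39 in Sham and 2.04 and 1.55 in VSG. The 3 groups did not overlap, with VSG between Control and Sham. Its log2 change was 1.57 ± 0.24 for Sham minus Control, the smallest adjusted p of the 30 tested genes in that comparison (limma, 0.166), and -0.57 ± 0.24 for VSG minus Sham (adjusted p = 0.944). Gpnmb, a glycoprotein of lysosomes and the cell surface, had 0.0392 and 0.0236 FPKM in Control, 0.406 and 4.14 in Sham and 0.856 and 0.362 in VSG. Its high value came from Sham mouse 2 alone, and the other Sham mouse lay within the range of VSG. Gpnmb was not tested because only 1 mouse reached 1 FPKM.

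Spp1, which encodes the secreted matrix protein osteopontin, had 28.5 and 29.4 FPKM in Control, 183 and 58.4 in Sham and 143 and 29.2 in VSG. VSG mouse 2 was at the level of Control, while VSG mouse 1 lay between the Sham mice. The log2 change for Sham minus Control was 1.80 ± 0.90 (limma adjusted p = 0.529). It was 0.99 without Sham mouse 1 and 2.62 without Sham mouse 2. Bile duct cells also make osteopontin, and the summed FPKM of 5 cholangiocyte genes was 2.24 and 3.38 in Control, 2.54 and 4.58 in Sham and 2.01 and 1.63 in VSG. The mouse with the higher Spp1 had the lower cholangiocyte sum in Sham and the higher one in VSG. The part of bile duct cells in the Spp1 values was not tested.

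Cd9 had 13.3 and 13.5 FPKM in Control, 15.3 and 40.8 in Sham and 32.9 and 13.1 in VSG. VSG mouse 2 was the lowest of all 6 mice. Lgals3, which encodes the sugar-binding protein galectin-3, had 0.930 and 1.02 FPKM in Control, 4.22 and 4.69 in Sham and 5.03 and 7.17 in VSG. Its groups did not overlap, and the VSG mice were the highest when its transcripts were summed. The log2 change for VSG minus Sham was 0.37 ± 0.25 (limma adjusted p = 0.944), and it was -0.34 when the highest transcript was used in place of the sum. The log2 change was 1.46 ± 0.25 for Sham minus Control and 1.83 ± 0.25 for VSG minus Control, with limma adjusted p of 0.192 and 0.166. Itgax, the integrin CD11c, kept the same order below the filter, at 0.0720 to 0.0830 FPKM in Control, 0.232 to 0.264 in Sham and 0.336 to 0.340 in VSG.

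The 3 recruited monocyte genes were scarce in every liver, and both Sham mice were above both VSG mice in Ccr2 and Cx3cr1 but not in Itgam. Ccr2, the chemokine receptor that brings monocytes out of the blood, had 0.104 and 0.0750 FPKM in Control, 0.693 and 1.08 in Sham and 0.588 and 0.622 in VSG. Cx3cr1, the fractalkine receptor, had 0.135 and 0.0690 FPKM in Control, 0.810 and 1.33 in Sham and 0.491 and 0.324 in VSG. In both genes the 3 groups did not overlap and VSG lay between Control and Sham. Itgam, the integrin CD11b, had 0.0787 and 0.104 FPKM in Control, 0.186 and 0.455 in Sham and 0.192 and 0.200 in VSG. Sham mouse 2 was the highest mouse for all 3. None of them was tested, since fewer than 2 mice reached 1 FPKM in Ccr2, Cx3cr1 and Itgam, and in a fit with no filter their adjusted p for Sham minus Control was 0.221, 0.233 and 0.481.

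**Figure D4:**
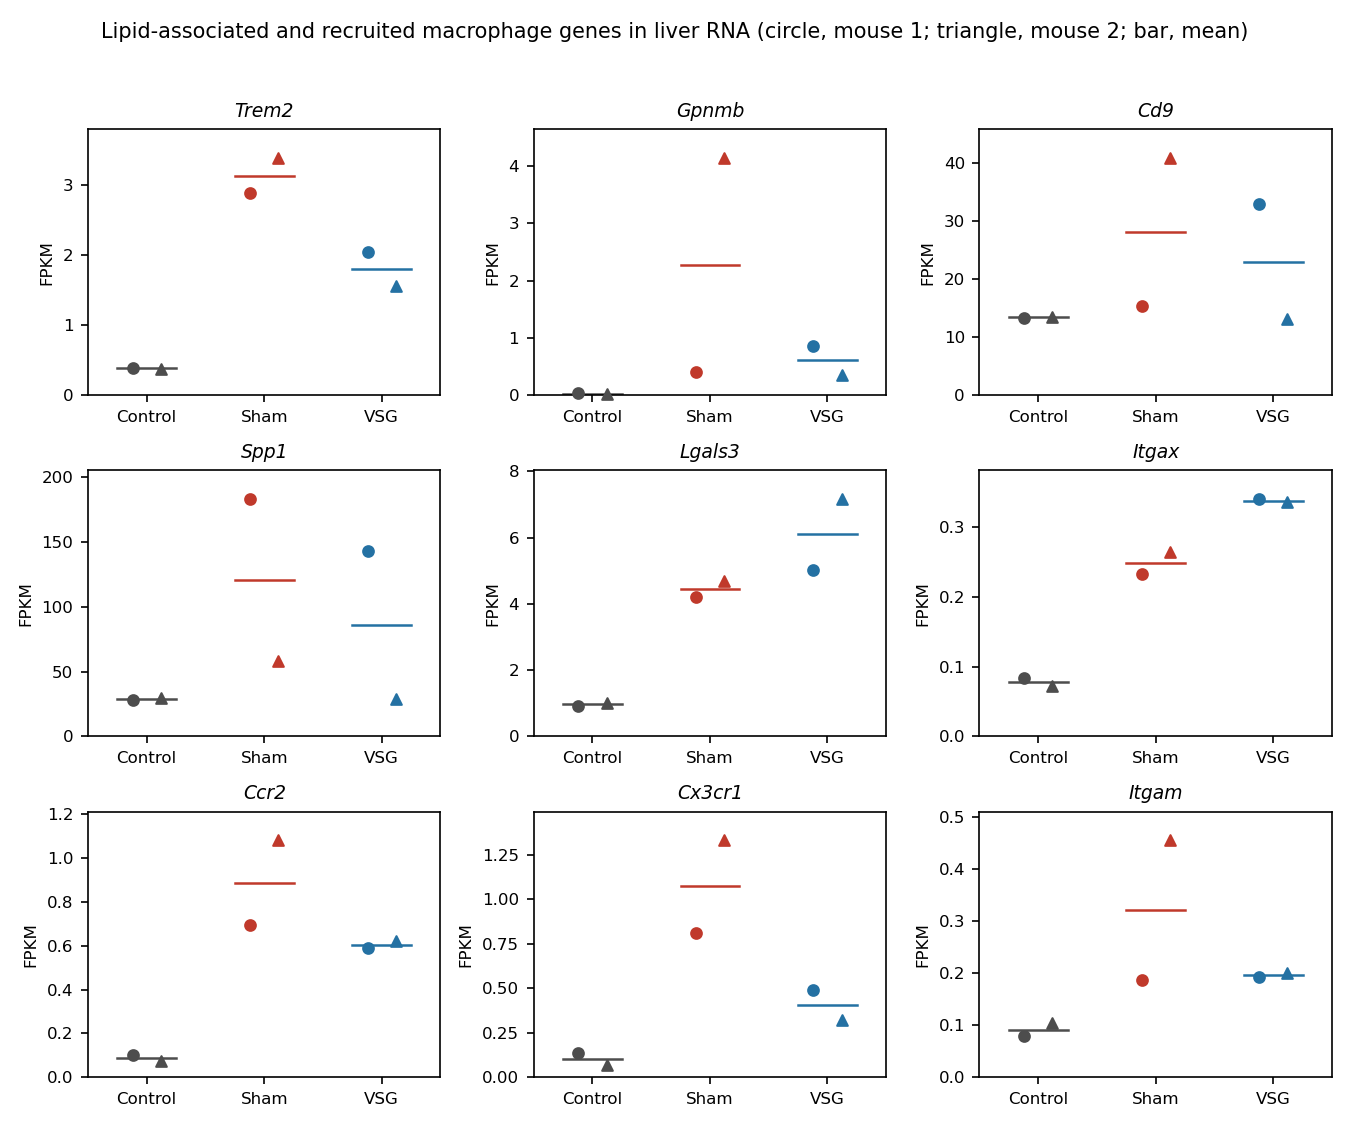
FPKM of the 6 lipid-associated and the 3 recruited monocyte genes in each mouse, with a linear scale from 0 for each gene (circle, mouse 1; triangle, mouse 2; bar, mean of 2 mice). Trem2, Ccr2 and Cx3cr1 are highest in both Sham mice, Lgals3 (summed over transcripts, an order that turns with the highest transcript alone) and Itgax in both VSG mice, and the 2 mice of a group lie far apart for Spp1, Cd9 and Gpnmb.

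Among the genes that macrophages share, 15 of 20 were higher in both Sham mice than in both Control mice (23.3% of all genes) and 13 of 20 were higher in both VSG mice than in both Control mice (29.9%). None was higher in both VSG mice than in both Sham mice (18%), and Ptprc alone was lower (9.7%). The median log2 change over the 18 tested was 1.11 for Sham minus Control, 1.08 for VSG minus Control and 0.09 for VSG minus Sham. Without VSG mouse 2 the last was -0.46, and without VSG mouse 1 it was 0.61, where the median for VSG minus Control was 2.32. With quantile normalization or median ratio scaling the shared median for VSG minus Sham was -0.02, and the median of all genes moved with it, from 0.08 to -0.016 and -0.010.

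The 3 chains of complement C1q, the protein that starts the classical complement pathway and that liver macrophages secrete, come from neighbouring genes on chromosome 4. C1qa had 13.01 and 8.58 FPKM in Control, 32.7 and 26.7 in Sham and 22.4 and 59.9 in VSG. C1qb had 10.8 and 6.91 FPKM in Control, 30.6 and 34.1 in Sham and 21.0 and 60.8 in VSG. C1qc lay at 6.82 to 10.4 FPKM in Control, 26.1 to 31.0 in Sham and 20.5 to 60.0 in VSG. In each mouse the highest chain was 1.01 to 1.31 times the lowest, so the chains kept nearly one ratio to each other while their level varied between mice. For Sham minus Control the log2 change was 1.40 ± 0.51, 1.78 ± 0.54 and 1.64 ± 0.54 for C1qa, C1qb and C1qc, with limma adjusted p of 0.431, 0.388 and 0.406.

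Ctsb had 78.8 and 75.0 FPKM in Control, 149 and 109 in Sham and 123 and 140 in VSG. Its mean over the 6 mice was the highest of the 37 genes, although Spp1 was above it in Sham mouse 1 and VSG mouse 1, and all 4 mice on the high-fat diet were above both Control mice, with a log2 change of 0.72 ± 0.24 for Sham minus Control (limma adjusted p = 0.417). Hepatocytes make cathepsin B too, and the exons of Ctsb overlap those of Fdft1 on the other strand, whose reads may not be told apart here, as for Cd9 and Gm16749. Lyz2, the lysozyme of myeloid cells, had 6.54 and 6.69 FPKM in Control, 22.2 and 60.0 in Sham and 19.2 and 49.5 in VSG. Its log2 change for Sham minus Control was 2.30 ± 0.64 (limma adjusted p = 0.359), and neutrophils carry it as well.

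Tyrobp, the adaptor DAP12 through which TREM2 signals, had 1.92 and 2.46 FPKM in Control, 20.2 and 19.6 in Sham and 11.7 and 40.3 in VSG. The Sham mice lay close together and far above Control, and the change of 2.72 ± 0.58 on the log2 scale for Sham minus Control was the largest of the 30 tested genes in that comparison. Its limma adjusted p was 0.279 in the fit of all 3 groups and 0.0985 when only Sham and Control were fitted. For VSG minus Control the change was 2.85 ± 0.58 (adjusted p = 0.330), and 2.0 without VSG mouse 2. Ctss, the protease cathepsin S, and Aif1, the actin-binding protein IBA1, are named here after their values were seen. Ctss was at 4.74 to 5.32 FPKM in Control, 19.4 to 23.5 in Sham and 14.1 to 33.0 in VSG, and Aif1 at 1.05 to 1.2, 3.99 to 9.56 and 4.08 to 9.14.

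Some shared genes did not follow. Mpeg1, the pore-forming protein perforin-2, had 0.517 and 3.76 FPKM in Control, was listed at 0 in both Sham mice and in VSG mouse 1, and had 17.1 FPKM in VSG mouse 2. Fcer1g, the signalling chain of Fc receptors, had 6.37 and 4.20 FPKM in Control and 25.2 and 12.3 in Sham, was listed at 0 in VSG mouse 1 and had 26.8 in VSG mouse 2. Such jumps to 0 went with values of 11.7 FPKM or more for Tyrobp and C1qa in the same mouse. Csf1r, the growth factor receptor, was at 0.875 to 2.49 FPKM in 5 mice with Control, Sham and VSG mouse 1 overlapping, and at 14.0 FPKM in VSG mouse 2, and its exons overlap those of Hmgxb3 on the other strand. Adgre1, which encodes the macrophage marker F4/80, was at 0.473 to 0.568 FPKM in Control, 1.68 to 2.62 in Sham, 0.202 in VSG mouse 1 and 2.62 in VSG mouse 2. Ptprc, the leukocyte marker CD45, had 0.454 and 0.323 FPKM in Control and 0.944 and 0.968 in Sham, and was listed at 0 in both VSG mice. It thus followed most shared genes for Sham against Control but not for VSG. The other shared genes, Cd68, Laptm5, Msr1, Cybb, Fcgr1 and Axl, lay between 0.142 and 13.7 FPKM, and in 4 of these 6 (Cd68, Msr1, Cybb and Fcgr1) both Sham mice were above both Control mice (23.3% of all genes).

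Each marker was also divided by the mean FPKM of the 3 C1q chains in the same mouse, a measure chosen after the values were seen and given with no test. The mean itself was 11.4 and 7.44 FPKM in Control, 31.4 and 28.9 in Sham and 21.3 and 60.2 in VSG. A ratio can thus be lower in Sham than in Control where the FPKM is higher, as for Vsig4 and Folr2. Some shared genes varied widely against C1q, such as Csf1r (0.0278 to 0.232), and others less, such as Ctss (0.466 to 0.811). Clec4f was 0.457 and 0.474 of the C1q mean in Control, 0.0672 and 0.302 in Sham and 0.296 and 0.810 in VSG. Vsig4 was 0.216 and 0.250 in Control, 0.172 and 0.153 in Sham and 0.252 and 0.358 in VSG, so per unit of C1q both Sham mice were below the other 4 mice in Vsig4, and they were in Folr2 too. Marco ran otherwise, at 0.0922 and 0.246 in Control, 0.654 and 0.242 in Sham and 0.240 and 0.263 in VSG, with Sham mouse 1 the highest. Timd4, at 0.0185 to 0.0755, and Spic, at most 0.125, overlapped between Sham and VSG. For Cd5l the VSG mice, at 0.872 and 0.677, were above all others, which lay at 0.221 to 0.454.

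On the same scale, Trem2 was 0.0348 and 0.0513 in Control, 0.0917 and 0.117 in Sham, 0.0956 in VSG mouse 1 and 0.0258 in VSG mouse 2. The last was the lowest of all 6 mice, although its Trem2 FPKM was above that of both Control mice. Gpnmb was 0.00344 and 0.00317 in Control, 0.0129 and 0.143 in Sham and 0.0401 and 0.00602 in VSG. Its Control ratios rest on FPKM values near 0 (0.0392 and 0.0236). Cd163 was 0.119 and 0.131 in Control and at most 0.0426 in the other mice. The VSG mice thus stood apart from each other, with VSG mouse 2 higher in Clec4f and Vsig4 and lower in Trem2 and Gpnmb per unit of C1q.

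**Figure D5:**
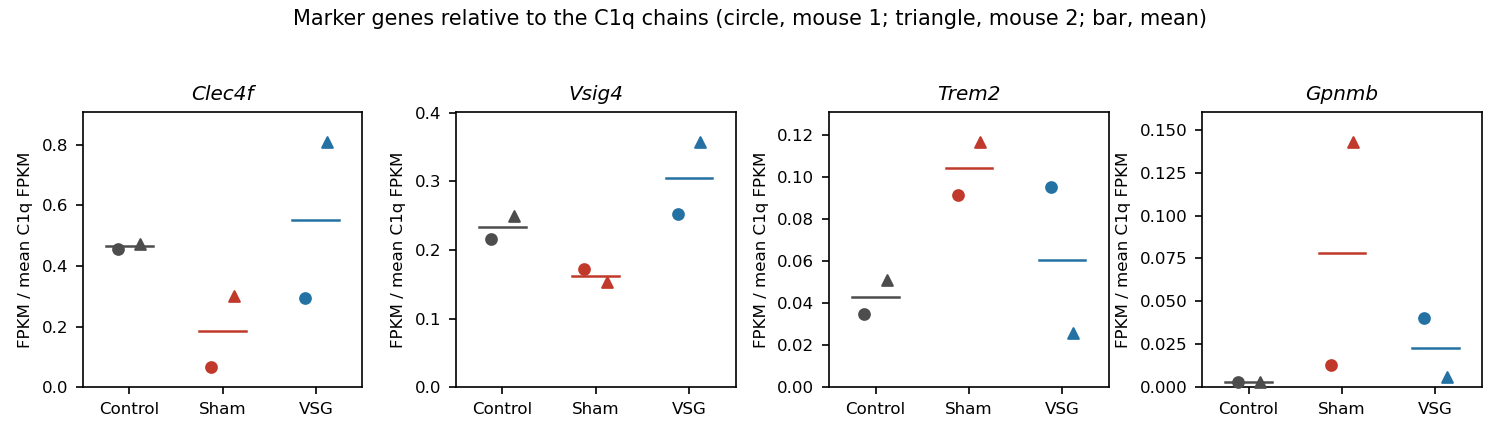
FPKM of Clec4f, Vsig4, Trem2 and Gpnmb divided by the mean FPKM of the 3 C1q chains of the same mouse, on linear scales from 0 (circle, mouse 1; triangle, mouse 2; bar, mean of 2 mice). Vsig4 is lowest in both Sham mice (0.153 and 0.172), and VSG mouse 2 is the highest mouse for Clec4f (0.810) and the lowest for Trem2 (0.0258).

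Other genes of macrophages were taken from lists. Besides those that passed, 2 of each list are printed for having its largest change in VSG minus Sham, so they do not stand for their list, and a few more are named after their values were seen. Of 7 other Kupffer cell genes 6 were tested and 1, Il18bp, passed the false discovery rate. Il18bp, whose product binds and blocks interleukin-18, had 0.376 FPKM in Control mouse 1 and was listed at 0 in Control mouse 2, with 28.3 and 36.0 FPKM in Sham and 14.5 and 15.3 in VSG. Its log2 change was 4.81 ± 0.26 (limma adjusted p = 0.0119) for Sham minus Control and 3.76 ± 0.26 (adjusted p = 0.0273) for VSG minus Control. Both changes rest on Control values of 0.376 FPKM and a listed 0, which, as above, can be a failed estimate. Both VSG mice were below both Sham mice, and the log2 change of -1.05 ± 0.26 did not pass (adjusted p = 0.831). The first call was lost without either Control mouse (adjusted p of 0.110 and 0.183), and the second without either Control or either VSG mouse (0.159 to 0.248), with a pseudocount of 0.1 (0.161) and with a replicate block (0.176). Fcna, a ficolin that binds sugars on microbes, had 10.1 and 6.29 FPKM in Control, 4.55 and 4.95 in Sham and 5.11 and 43.7 in VSG. Like Clec4f it was far the highest in VSG mouse 2. Unlike Clec4f, both Sham mice were below all Control and VSG mice.

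Of 9 transcription factors of Kupffer cell identity 8 were tested and none passed, with a smallest adjusted p of 0.293. Id3, an inhibitor of DNA binding that Kupffer cells need, had 42.5 and 44.6 FPKM in Control, 38.4 and 23.1 in Sham and 18.9 and 4.82 in VSG. The 3 groups did not overlap and VSG mouse 2, with the most Clec4f, had the least Id3. Rxra, a partner of LXR, was at 65.0 to 86.7 FPKM in 5 mice and listed at 0 in Sham mouse 1. Of 10 growth factors and niche signals 7 were tested and none passed. Gdf2, which encodes BMP9, was at 3.20 and 3.45 FPKM in Control, 0.749 and 1.84 in Sham and 1.82 and 3.48 in VSG, and Il34, a ligand of CSF1R, at 1.03 and 0.809, 0.284 and 0.372, and 0.588 and 1.2. Others ran otherwise. Gas6, the ligand of AXL and MERTK, had 10.8 and 8.22 FPKM in Control, 37.9 and 60.6 in Sham and 31.4 and 39.5 in VSG, with a log2 change of 2.23 ± 0.32 for Sham minus Control (limma adjusted p = 0.159). Tgfb1 was at 0.923 to 1.03 FPKM in Control, 1.19 to 1.59 in Sham and 1.54 to 2.86 in VSG.

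Of 7 other lipid-associated macrophage genes 6 were tested and none passed. Cd63, a tetraspanin of lysosomes, had 4.21 and 4.69 FPKM in Control, 27.2 and 106 in Sham and 9.19 and 18.4 in VSG, and like Trem2 and Ccr2 its VSG mice lay between the groups without overlap. Ctsl, cathepsin L, was at 154 and 158 FPKM in Control, 169 and 330 in Sham and 182 and 140 in VSG. Others of the list were higher in both VSG mice than in both Sham mice, namely Lpl, lipoprotein lipase, at 2.55 to 2.69 FPKM in Sham and 3.40 to 5.05 in VSG, and Mmp12, a macrophage elastase, at 0.123 to 0.336 and 0.638 to 0.946. Of 7 monocyte genes 4 were tested, none passed, and in all 7 both Sham mice were above both Control mice (23.3% of all genes). Cd14, the receptor for endotoxin, had 2.25 and 1.31 FPKM in Control, 8.13 and 49.0 in Sham and 2.82 and 2.45 in VSG, and Plac8 was at 6.02 and 4.22, 10.4 and 9.18, and 5.43 and 8.37. S100a4 was higher in both VSG mice (2.38 and 2.73 FPKM) than in both Sham mice (2.30 and 2.04). The summed FPKM of the 7 monocyte genes was 6.01 to 9.05 in Control, 22.4 to 64.0 in Sham and 12.4 to 15.5 in VSG, the order of Ccr2 and Cx3cr1.

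Sums of markers of other cells are given beside these, and none of their tested genes passed the false discovery rate. Some sums were highest in Sham and others were lowest there. The summed FPKM of 10 neutrophil genes was 5.74 to 14.8 in Control, 44.1 to 47.5 in Sham and 17.0 to 23.8 in VSG, the order of the monocyte genes, and in 5 of them, S100a8 and S100a9 included, both VSG mice were below both Sham mice (9.7% of all genes). S100a8 was at 6.94 and 2.25 FPKM in Control, 21.6 and 23.2 in Sham and 11.2 and 7.74 in VSG, and S100a9 at 5.40 and 2.66, 18.2 and 19.9, and 9.43 and 8.40. The sum of 8 sinusoidal endothelial genes was lowest in Sham, at 6.59 to 9.31 FPKM against 22.4 to 48.2 in Control and 30.9 to 34.1 in VSG. Clec4g, a lectin of these cells, was at 26.1 and 4.35 FPKM in Control, 3.93 and 2.19 in Sham and 18.5 and 17.4 in VSG, and Fcgr2b at 8.12 and 6.89, 2.53 and 2.98, and 8.73 and 8.58. The sum of 8 stellate cell genes was also lowest in Sham, at 20.5 to 30.9 FPKM against 58.7 to 60.0 in Control and 57.7 to 82.4 in VSG, with Dcn at 40.6 and 41.7, 13.9 and 23.8, and 41.1 and 53.3 FPKM and Colec11 at 11.7 and 11.8, 4.32 and 2.71, and 11.2 and 20.1.

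None of the tested genes on the lists of other cells passed the false discovery rate, and no T cell, B cell or NK cell gene and only 3 of 10 neutrophil genes reached the filter for a test. Hbb-b1 was at 47.9 to 134 FPKM in 5 mice and 698 in VSG mouse 2, and Hbb-b2 at 34.4 to 94.8 and 478. The 3 hepatocyte genes found, Apoa1, Ttr and Apoc3, summed to 9814 to 19139 FPKM, with Sham mouse 2 the lowest, Ttr between 1011 and 4143 FPKM and Apoc3 between 1642 and 3955. Sox9, the 1 cholangiocyte gene tested, had 0.384 and 1.26 FPKM in Control, 2.05 and 2.75 in Sham and 0.814 and 0.477 in VSG, and Batf3, the 1 dendritic cell gene tested, was at 0.624 and 0.250 FPKM in Control, 1.33 and 0.652 in Sham and 0.579 and 1.51 in VSG. The sum of 4 NK cell genes was 0.225 to 1.36 FPKM and that of 5 dendritic cell genes 1.45 to 2.63. The part of these cells in the macrophage values was not tested.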

How the data were processed

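Reads were aligned by the authors to mm9 with TopHat2, and Cufflinks gave their deposited FPKM of every RefSeq transcript. Reads were 50 bp, tool versions are not given in the sources used here, and the labels give poly(A) enrichment where the study's methods give ribosomal depletion. Total read numbers are unknown. The deposited signal of each FAIRE peak came from F-seq, with peaks kept by IDR (reproducibility) across both mice of a group. Other deposited tables hold the authors' fold changes and p-values between groups and positions of variable sites, and were not used.

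Of 34933 transcript IDs, 34042 were matched to genes through a RefSeq table, and FPKM was summed per gene. log2(FPKM + 1), which understates changes of low genes, was fitted with limma 3.58.1 (R 4.3.3; group means, trended variance, all 6 mice) for genes that reached 1 FPKM in 2 or more mice, with Benjamini-Hochberg adjustment over 9869 genes at 10%. The exact permutation test cannot go below 0.333 with 2 against 2 and was not run. SE is from this fit, and n is 2 mice per group throughout. The fit was tested on simulated data, and no result of that test is given or relied on here. Python 3.11.15, pandas 2.3.3 and matplotlib 3.10.9 were used for peaks and plots. Start sites and gene positions are from the GENCODE annotation of NCBIM37, the mm9 assembly.

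The members, lists and tests were chosen with earlier results of these data known. Values of every mouse, or ranges over several mice, are given for Clec4f, Vsig4, Trem2 and Gpnmb and for the 4 most abundant genes of each group. The same holds for the 2 of each group with the largest change in VSG minus Sham and in Sham minus Control. It also holds for 2 genes of each other list by the change in VSG minus Sham, where tested. Alternatives were other pseudocounts, filters, scalings and fits, each mouse left out, and other peak windows.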

Additional observations from a re-analysis of the deposited data

How the results depend on the processing

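With each of the 6 mice left out in turn, the genes that passed the false discovery rate ranged from 0 to 157 for Sham minus Control, 0 to 50 for VSG minus Sham and 0 to 34 for VSG minus Control, and none of them was among the 37 macrophage genes. A group left with 1 mouse was assumed to vary like the others. Median log2 changes ranged, for Sham minus Control, from 0.18 to 0.93 (resident Kupffer), 1.44 to 1.53 (lipid-associated), 1.07 to 1.21 (shared) and 0.93 to 1.08 (all macrophage genes tested). For VSG minus Sham they ranged from -0.023 to 1.77, -0.79 to 0.26, -0.46 to 0.61 and -0.40 to 0.59, with VSG mouse 2 left out at one end and VSG mouse 1 at the other. For VSG minus Control they ranged from 0.61 to 2.74, 0.45 to 1.42, 0.74 to 2.32 and 0.86 to 2.21. The cause was not tested.

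A pseudocount of 0.1 gave medians for Sham minus Control of 0.99 (resident), 1.96 (lipid-associated), 1.75 (shared) and 1.45 (all), medians for VSG minus Control of 1.55 (lipid-associated), 1.84 (shared) and 1.91 (all), and 8 genes passing for VSG minus Sham. With no filter, 64 genes passed for Sham minus Control, the median over all 37 macrophage genes was 0.90, and that of lipid-associated genes for VSG minus Control 0.81. With a filter of 5 FPKM, 14, 2 and 10 genes passed in the 3 comparisons, and the medians for Sham minus Control were 0.96 (resident), 1.71 (shared) and 1.59 (all), for VSG minus Control 1.84 (shared) and 1.85 (all), and for VSG minus Sham 1.33 (resident) and -0.26 (lipid-associated). With all mice kept, the shared and overall medians for VSG minus Sham, both 0.09, lay between -0.021 and 0.14. With only genes above 0 in all mice, 8, 0 and 2 genes passed, 2 macrophage genes were under an unadjusted p of 0.05 for VSG minus Sham (4 with no filter, 2 with median ratio scaling) and the resident median for Sham minus Control was 0.74. The highest transcript in place of the sum gave a shared median of 1.40 for Sham minus Control. A fit of only the 2 groups compared gave 1 macrophage gene (Tyrobp) and a shared median of 1.40 for Sham minus Control, 9 genes for VSG minus Sham, and 44 for VSG minus Control with a shared median of 1.65.

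The mouse numbers were not shown to pair the mice, since the deviations of same-numbered mice correlated at 0.118 (Control and Sham), 0.0643 (Control and VSG) and 0.039 (Sham and VSG). With a replicate block 9, 0 and 10 genes passed, none of them among the 37. Start sites with a FAIRE peak within 5000 bp numbered 8 in Control, 11 in Sham and 6 in VSG, and 2 in each list with the stronger 50% of peaks. Of the changes given for named macrophage genes, 1 turned its direction under these alternatives, Lgals3 for VSG minus Sham, at -0.34 with the highest transcript in place of the sum. Directions over all 30 tested macrophage genes were less stable. For VSG minus Sham, 14 of 30 turned without VSG mouse 2 and 8 without VSG mouse 1. In the same comparison 7 turned without Sham mouse 1 and 5 without Sham mouse 2. For Sham minus Control, 5 turned without Sham mouse 1, and for VSG minus Control, 5 without VSG mouse 2. The median over all genes for VSG minus Control was 0.125, and it was 0.00103 with quantile normalization and -0.0376 with median ratio scaling. Total read numbers are unknown, so no counting error is given for low FPKM values.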
